A study of Homo sapiens with 3 samples.

Results

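The MYC, MAX and MXD network is a set of 10 related transcription factor genes, MYC, MYCN, MAX, MXI1, MXD1, MXD3, MXD4, MNT, MLX and MGA. They were taken by symbol from the gene tables of RNA sequencing libraries of K562 cells, an established human line from chronic myelogenous leukaemia. All 10 symbols were found among 26334 genes, and 9 of them averaged 50 counts or more per library, as did 10406 genes in all. The exception was MYCN.

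MYC and MYCN bind DNA at the E-box as dimers with MAX and activate genes of growth, ribosome production and metabolism. The MXD proteins and MNT compete for the same MAX partner and recruit SIN3 corepressors to the same sites, and MGA brings MAX into a Polycomb complex. MLX pairs with MLXIP or MLXIPL, factors that respond to glucose, and can also pair with some MXD proteins and MNT. In blood cells, high MYC accompanies proliferation, and MXD genes are often raised as cells leave the cycle and mature.

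Every library came from K562 cells infected with a pMYs-IG retrovirus, selected for GFP 3 days later and then cultured, so GFP-positive selection and vector are common to the 3 groups. The vector was empty, or carried EVI1-WT or EVI1+18, each behind an HA tag of 3 copies. EVI1 is a zinc finger factor coded by MECOM, and the series title ties the EVI1+18 form to aberrant splicing. The labels describe stable retroviral overexpression, and each group was 1 sorted population sequenced as 1 library. There was therefore no spread between replicates, no test was possible, and each ratio compares libraries rather than constructs. Intervals after a ratio are exact 95% counting intervals and cover counting error only.

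Library totals ran from 17794423 to 20772348 counts. MECOM had 793, 1039 and 2012 counts with empty vector, EVI1-WT and EVI1+18. Its ratio to empty vector was only 1.30 with EVI1-WT (1.18 to 1.42) but 2.21 with EVI1+18 (2.04 to 2.41). Between the EVI1 libraries it was 1.71 (1.59 to 1.84), so the form of EVI1 and the level of MECOM cannot be told apart there. All 10 erythroid markers of K562 were present, with GATA1 at 189 to 210 CPM (counts scaled to library size), and MS4A1, LUM, PAX2 and NEFM, markers of other cells, had 0 counts throughout. The empty vector library was highest in the sums of such markers. The 6 lymphoid markers summed to 10.5, 3.51 and 3.92 CPM with empty vector, EVI1-WT and EVI1+18, mostly CD3D (179, 59 and 73 counts), and the 5 stromal markers to 6.21, 0.876 and 1.93 CPM, mostly COL1A2 with empty vector (93, 2 and 20 counts). The 3 packaging-line markers had 1 count in all. Histone genes were listed as a possible sign of RNA handling because most of their transcripts lack a poly(A) tail. Of those averaging 50 counts or more, 11 of 11 were lower in both EVI1 libraries, where 47.4% and 50.1% of all 10406 genes were. Their median log2 ratio was -0.89 with EVI1-WT and -0.45 with EVI1+18. Whether RNA handling enters these ratios was not tested. HIST2H4A and HIST2H4B, both among the 11, had identical counts (144, 48 and 98), so their reads are shared. Among listed histone genes with a lower mean, HIST1H1E was higher with EVI1+18 (2.18 CPM) than with empty vector (1.83 CPM), and HIST1H4H and HIST1H4C were lower. The part of the histone and other-cell markers in the results below was not tested. In bulk RNA, fewer cells with a transcript and less transcript per cell cannot be told apart.

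The promoters show what the network's genes share in sequence. RefSeq promoters (GRCh38.p14, 250 bases before to 50 after a start) were matched for 9 of the 10 members, MYCN included, with 14 starts in all. MYC was left out of the search beforehand, so the counts below say nothing of its promoter. The E-box CACGTG, which reads the same on both strands, lay in the promoter of 3 of these 9 matched genes, MLX, MNT and MXD4, and in 3 of the 14 promoters. Across the whole set, 7.26% of 35116 promoters hold it, as do those of 8.77% of 27305 genes. The stretches around the 3 sites are shown 5′ to 3′ on the gene's strand because these are the letters that MYC, MXD and MAX dimers are known to bind, with the E-box in capitals. The MLX site is at chr17:42567023-42567082 on the plus strand, 50 bases before the start. The MNT site is at chr17:2401221-2401280 on the minus strand, 193 bases before it, and the MXD4 site at chr4:2262315-2262359 on the minus strand, 238 bases before it.
MLX: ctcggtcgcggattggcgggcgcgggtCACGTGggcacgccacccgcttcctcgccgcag
MNT: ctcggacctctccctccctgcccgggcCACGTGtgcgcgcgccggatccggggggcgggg
MXD4: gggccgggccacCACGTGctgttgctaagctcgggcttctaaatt

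The core of the hypoxia response element, ACGTG on either strand, is contained in CACGTG. It was found in 6 of the 9 matched genes against 24.9% of all genes in the table. By promoter, it lay in 6 of the 14 against 21.4% of all 35116. MLX, MNT and MXD4 are among the 6 genes through their E-boxes. In MAX, MGA and MXI1 it stood outside an E-box. The MXI1 stretch is shown because MXI1 is a reported target of the hypoxia factor HIF1. It lies at chr10:110210091-110210149 on the plus strand, 113 bases before one of 3 MXI1 starts, and holds the core on the opposite strand, in capitals as CACGT.
MXI1: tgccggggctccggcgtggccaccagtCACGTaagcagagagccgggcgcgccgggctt

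MYC was the most abundant member in every library. On the TPM scale, which the authors adjusted for transcript length, it stood at 320, 250 and 274 with empty vector, EVI1-WT and EVI1+18, and only 4.07%, 5.46% and 4.81% of the 10406 genes had a higher TPM. MYC alone made up 59.2%, 54.6% and 58.5% of the summed TPM of the 10 genes. MAX, the shared partner, followed at 83.0, 80.9 and 71.9 TPM and MLX at 79.2, 70.1 and 65.8 TPM. Below them came MGA (21.1, 19.9 and 17.4 TPM) and MXD1 (12.6, 10.2 and 12.1 TPM). MNT (8.65, 7.43 and 8.39 TPM) and MXI1 (8.57, 8.83 and 8.69 TPM) changed places between libraries. MXD4 stood at 5.44, 6.24 and 5.46 TPM and MXD3 at 2.62, 4.23 and 4.54 TPM. The order of the other members was the same in all 3 libraries.

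**Figure D1:**
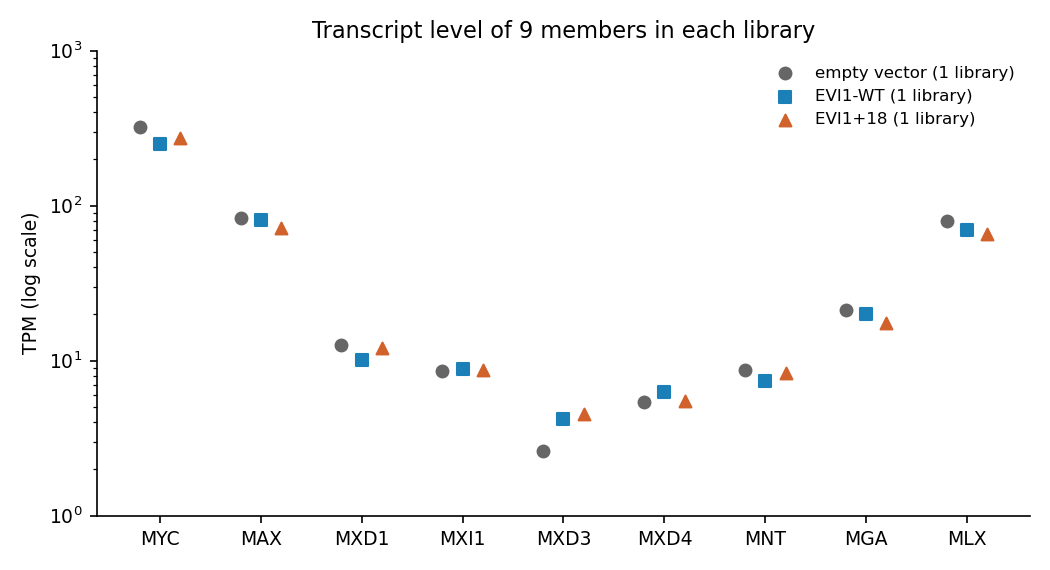
Transcript level in TPM (log scale) of 9 members, with 1 point for each of the 3 libraries; MYCN, listed at 0.04 TPM or 0, is not drawn. MYC lies between 250 and 320 TPM, MAX and MLX between 65.8 and 83.0 TPM, and the MXD genes, MNT and MGA at 21.1 TPM or lower.

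Most members stayed within 1.5-fold between libraries, as 93.7%, 94.5% and 95.6% of all 10406 genes did in the 3 comparisons. With EVI1-WT against empty vector, 1 of 9 members (MXD3) was at least 1.5-fold higher and 0 were at least 1.5-fold lower, where 2.37% of all 10406 genes were higher and 3.95% lower by that rule. With EVI1+18 against empty vector, again 1 of 9 (MXD3) was higher and 0 lower, where 3.3% of all genes were higher and 2.23% lower. Between the EVI1 libraries 0 of 9 passed in either direction, where 3.57% of all genes were higher and 0.846% lower with EVI1+18. No member reached 2-fold in any of the 3 comparisons, a size that 2.4%, 1.85% and 1.16% of all genes reached. The median log2 ratio of the 9 members was -0.0074, 0.050 and 0.016, beside medians over all 10406 genes of 0.012, -0.00042 and -0.0062. The first pair of comparisons share the empty vector library, and the third reuses both EVI1 libraries, so a deviation of 1 library enters 2 comparisons.

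**Figure D2:**
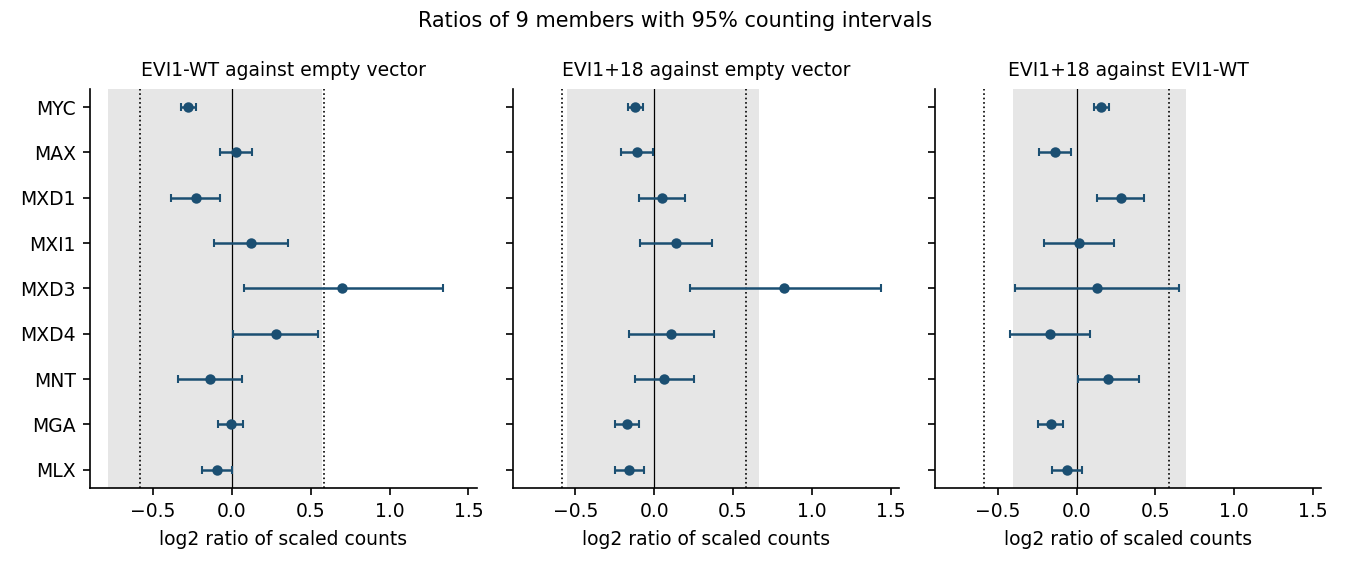
Log2 ratio of scaled counts for 9 members in the 3 comparisons, with points for the ratio of 1 library to another and bars for the 95% counting interval. Dotted lines mark 1.5-fold and the grey band holds the middle 95% of the 10406 genes; MXD3 lies right of the band against empty vector, at 0.70 and 0.82, and every other member inside it.

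MYC, the growth-promoting factor of the network, had 7329 counts with empty vector, 6123 with EVI1-WT and 7737 with EVI1+18, or 406, 335 and 374 CPM. The EVI1-WT library was the lowest. The ratio to empty vector was 0.826 with EVI1-WT (0.798 to 0.854) and 0.921 with EVI1+18 (0.892 to 0.951), and EVI1+18 against EVI1-WT was at 1.12 (1.08 to 1.15). The lower MYC with EVI1-WT was small beside the whole table, since 11.7% of the 10406 genes had a lower ratio. Among the 4309 genes averaging 1000 counts or more, where counting error is smaller, 3.71% had a lower ratio. With EVI1+18, 23.7% of those abundant genes had a lower ratio than MYC.

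MYCN, the family member of neural and embryonic tissue, had 1 count with empty vector and 0 in both EVI1 libraries. A count of 0 allows up to 3 counts, or 0.164 CPM in the EVI1-WT library and 0.145 CPM in the EVI1+18 library, so MYCN was not detectable at this depth and no ratio is given. MYCL, the remaining gene of the MYC family and not one of the 10, had 182, 301 and 335 counts (6.02, 9.53 and 9.14 TPM). It was higher in both EVI1 libraries, 1.63-fold with EVI1-WT (1.36 to 1.98) and 1.61-fold with EVI1+18 (1.34 to 1.93), and the EVI1 libraries themselves were at a ratio of 0.982 (0.838 to 1.15). Its level stayed far below that of MYC.

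MAX, the partner through which MYC, MXD, MNT and MGA bind DNA, had 1544, 1593 and 1643 counts, or 85.6, 87.3 and 79.4 CPM. Its ratio was 1.02 with EVI1-WT against empty vector (0.95 to 1.09), 0.928 with EVI1+18 (0.866 to 0.996) and 0.910 between the EVI1 libraries (0.849 to 0.976). The sign of the EVI1-WT ratio turned with total-count scaling and with TPM, where the log2 ratio was -0.037. The EVI1+18 ratio to empty vector lay below 1 under every scaling tried.

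MXD1, an antagonist of MYC raised during blood cell maturation, had 735, 634 and 872 counts, or 40.7, 34.7 and 42.2 CPM. The EVI1-WT library was again the lowest, at a ratio of 0.853 to empty vector (0.766 to 0.95). With EVI1+18 the ratio was 1.04 (0.937 to 1.14), and EVI1+18 exceeded EVI1-WT 1.21-fold (1.09 to 1.35), beside 12.7% of all 10406 genes with a higher ratio in that comparison. MXD1 shares exon bases with SNRNP27 on its own strand in GENCODE 29, so a part of its reads is uncertain. SNRNP27 itself was at 1.05 with EVI1-WT and 0.913 with EVI1+18.

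MXI1, the MXD family gene reported as induced in hypoxia, had 287, 316 and 362 counts, or 15.9, 17.3 and 17.5 CPM. These levels lay close together, with ratios to empty vector of 1.09 (0.925 to 1.28) and 1.10 (0.940 to 1.29) and a ratio of 1.01 between the EVI1 libraries (0.867 to 1.18). Other known hypoxia genes covered a wide range. Of 11 averaging 50 counts or more, 7 were at least 1.5-fold higher with EVI1-WT, where 2.37% of all genes were, and 8 with EVI1+18, where 3.3% were. Their log2 ratios ran from -0.087 to 1.91 with EVI1-WT, with a median of 0.77, and from 0.17 to 2.91 with EVI1+18, with a median of 1.0, beside 0.12 and 0.14 for MXI1. P4HA1, a collagen prolyl hydroxylase, was at 1.98 with EVI1-WT (1.82 to 2.15) and 2.44 with EVI1+18 (2.25 to 2.64). ANKRD37, an ankyrin repeat gene known as a HIF1 target, had 15, 57 and 129 counts and was at 3.76 (2.10 to 7.14) and 7.50 (4.38 to 13.8). It set the top of both ranges and averaged 50 counts or more only through the EVI1 libraries, where it was higher. NDRG1, on the list but under that mean, was lower in both EVI1 libraries, at 41, 24 and 11 counts. CA9 and ADM, also under it, had 0, 10 and 7 counts and 0, 1 and 2 counts. The list was chosen with earlier results of these data known.

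MXD3, the MXD family gene that is known to be expressed in proliferating cells, had the highest ratios to empty vector among the 9 members with a ratio, and the fewest counts of them. It had 36 counts with empty vector, 59 with EVI1-WT and 73 with EVI1+18, or 1.99, 3.23 and 3.53 CPM. The empty vector library was the lowest and the EVI1 libraries lay close to each other. The ratio was 1.62 with EVI1-WT (1.05 to 2.52), 1.77 with EVI1+18 (1.17 to 2.72) and 1.09 between them (0.764 to 1.57). Of all 10406 genes, 1.58% had a higher ratio with EVI1-WT and 1.48% with EVI1+18. MXD3 was counted among these genes only through its EVI1 libraries, since its 36 counts with empty vector are under 50.

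The MXD3 value is uncertain because its exons overlap those of PRELID1 on the opposite strand over 1158 bases and of RAB24 on its own strand over 926 bases, in GENCODE 29. PRELID1 had 5028, 5143 and 5707 counts, many times those of MXD3, at ratios of 1.01 (0.972 to 1.05) and 0.990 (0.953 to 1.03) to empty vector. RAB24 had 734, 695 and 940 counts, at ratios of 0.936 (0.843 to 1.04) and 1.12 (1.01 to 1.23). The authors' length for MXD3, an average over its 2 transcripts weighted by their estimated shares, was 1527 bases with empty vector and 1465 bases in both EVI1 libraries. The gene closest to MXD3 in its pair of log2 ratios to empty vector was SLC45A3, which codes for a membrane transporter, at 0.70 and 0.82, with 95, 156 and 192 counts. LOC100132062 and LOC100132287, a pair of uncharacterised loci with 286, 474 and 577 counts each, came next at 0.71 and 0.82, and since their counts are identical their reads are shared. Nearness over 3 libraries describes them only.

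MXD4, a further antagonist of MYC, had 208, 255 and 257 counts, or 11.5, 14.0 and 12.4 CPM. The EVI1-WT library was the highest, at a ratio of 1.21 (1.01 to 1.46). The ratio was 1.08 with EVI1+18 (0.894 to 1.30) and 0.890 between the EVI1 libraries (0.745 to 1.06). The 4 MXD family genes thus did not move as a block. With EVI1-WT, MXI1, MXD3 and MXD4 lay above a ratio of 1 and MXD1 below it, and with EVI1+18 all 4 lay above it, though MXD1 lay below it with TPM, at a log2 ratio of -0.056.

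MNT, a broadly expressed MAX partner that restrains MYC, had 431, 396 and 516 counts, or 23.9, 21.7 and 24.9 CPM. It was lowest with EVI1-WT, at a ratio of 0.908 (0.790 to 1.04), and stood at 1.04 with EVI1+18 (0.917 to 1.19). EVI1+18 was 1.15-fold above EVI1-WT (1.01 to 1.31). With TPM the EVI1+18 ratio to empty vector turned, to a log2 ratio of -0.044.

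MGA, the large MAX partner of the Polycomb complex PRC1.6, had 2629, 2646 and 2675 counts, or 146, 145 and 129 CPM. The EVI1+18 library was the lowest, at a ratio of 0.888 to empty vector (0.841 to 0.937) and 0.892 to EVI1-WT (0.845 to 0.942), while EVI1-WT was at 0.995 (0.942 to 1.05). Its 11 partners in that complex stayed within 1.5-fold in the 3 comparisons, as did 93.7%, 94.5% and 95.6% of all 10406 genes, with median log2 ratios of 0.08, 0.0076 and -0.08. The most abundant, the chromatin reader CBX3, was at 1.14 with EVI1-WT (1.10 to 1.19) and 1.0 with EVI1+18 (0.966 to 1.05). TFDP2, a dimer partner of E2F factors, was at 1.14 (1.09 to 1.19) and 1.11 (1.06 to 1.16).

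MLX, the hub of the glucose-responsive arm, had 1837, 1738 and 1888 counts, or 102, 95.2 and 91.3 CPM. It was highest with empty vector, at ratios of 0.935 with EVI1-WT (0.875 to 0.999) and 0.897 with EVI1+18 (0.840 to 0.957), and of 0.959 between the EVI1 libraries (0.898 to 1.02). Its exons overlap those of PSMC3IP on the opposite strand over 770 bases, and that gene, with 533, 573 and 694 counts, was at 1.06 and 1.14 to empty vector. MLXIP, the partner of MLX also called MondoA, had 3260, 2738 and 3531 counts and was lowest with EVI1-WT, at a ratio of 0.830 (0.789 to 0.874), against 0.945 with EVI1+18 (0.901 to 0.991). MLXIPL, the ChREBP gene, had 44, 29 and 72 counts, a mean under 50. Its ratios to empty vector, 0.652 with EVI1-WT (0.393 to 1.06) and 1.43 with EVI1+18 (0.968 to 2.13), had intervals that include 1. EVI1+18 was 2.19-fold above EVI1-WT (1.41 to 3.50).

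The known targets of the MLX and MLXIP pair had another order across the libraries. TXNIP, an inhibitor of glucose uptake, had 2164, 2503 and 2269 counts and was at 1.14 with EVI1-WT (1.08 to 1.21) and 0.915 with EVI1+18 (0.862 to 0.971). ARRDC4, a related arrestin-domain gene, had 190, 264 and 218 counts and was at 1.37 (1.14 to 1.66) and 1.0 (0.820 to 1.22). Both were highest in the EVI1-WT library, where MLXIP was lowest, and neither reached 1.5-fold. A link to the level of MLXIP was not tested.

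Counts of members taken relative to MAX within a library need no scaling between libraries. MYC had 4.75 counts per MAX count with empty vector, 3.84 with EVI1-WT and 4.71 with EVI1+18. Relative to MAX, MYC with EVI1-WT was at 0.810 of its empty vector value (0.749 to 0.876), with EVI1+18 at 0.992 (0.918 to 1.07), and EVI1+18 against EVI1-WT at 1.23 (1.13 to 1.32). The summed counts of MXD1, MXI1, MXD3 and MXD4 were 1266, 1264 and 1564. Relative to MAX, this sum was at 0.968 with EVI1-WT (0.870 to 1.08) and 1.16 with EVI1+18 (1.05 to 1.29). Such ratios also carry the change of MAX, which was itself at 1.02 with EVI1-WT and 0.928 with EVI1+18 to empty vector. With scaling between libraries, the MXD sum was 70.1, 69.2 and 75.6 CPM with empty vector, EVI1-WT and EVI1+18. MYC relative to the same MXD sum was lower in both EVI1 libraries, at 0.837 with EVI1-WT (0.768 to 0.912) and 0.855 with EVI1+18 (0.788 to 0.927), with 1.02 between them (0.941 to 1.11). With MNT and MGA added to that sum, making 6 repressors, MYC was at 0.839 with EVI1-WT (0.795 to 0.886). With EVI1+18 it was then at 0.960 (0.911 to 1.01), an interval that includes 1, and at 1.14 against EVI1-WT (1.08 to 1.21). In sums of counts a long transcript weighs more, and MGA gave 2629 of the 4326 repressor counts with empty vector. By TPM, MYC over the same 6 repressors was 5.43 with empty vector, 4.41 with EVI1-WT and 4.85 with EVI1+18, so lower in both EVI1 libraries.

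**Figure D3:**
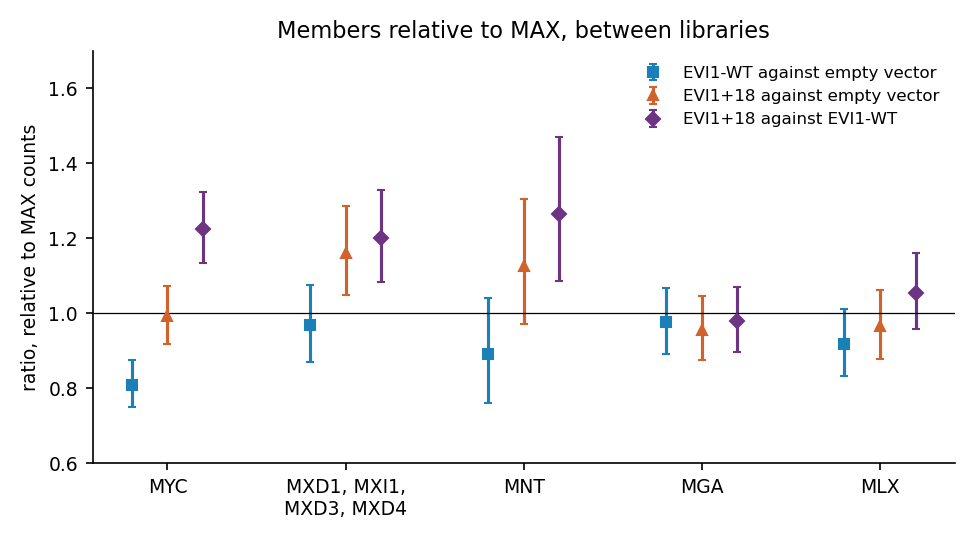
Ratio between libraries of each member's counts relative to the MAX counts of the same library, with points for the 3 comparisons and bars for the 95% counting interval. MYC lies at 0.810 with EVI1-WT and 0.992 with EVI1+18 against empty vector, the MXD sum at 0.968 and 1.16, and MGA near 1 in all 3 comparisons. The change of MAX enters every point, and its scaled ratios to empty vector were 1.02 and 0.928.

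As with most genes of the table, none of the 14 SIN3 and HDAC corepressors, 16 MYC cofactors or 16 genes of MYC protein turnover averaging 50 counts or more reached 1.5-fold in any comparison. Of all 10406 genes, 93.7%, 94.5% and 95.6% also stayed within 1.5-fold in the 3 comparisons, so these counts are near the background. The corepressors had median log2 ratios of 0.03 with EVI1-WT and -0.03 with EVI1+18. Among them RBBP4, a histone-binding subunit, was at 1.16 with EVI1-WT (1.13 to 1.2) and 1.13 with EVI1+18 (1.10 to 1.16), and RBBP7 at 1.03 (0.995 to 1.07) and 0.952 (0.917 to 0.988). Of the 16 MYC cofactors, 13 lay below a ratio of 1 with EVI1-WT, at a median of -0.09, and 9 with EVI1+18, at -0.02, where 47.4% and 50.1% of all genes lay below 1. RUVBL2, an ATPase of chromatin remodelling complexes, was at 0.868 with EVI1-WT (0.838 to 0.900) and 0.982 with EVI1+18 (0.95 to 1.01). HCFC1, a MYC-binding scaffold, was at 0.917 (0.886 to 0.949) and 0.956 (0.925 to 0.988). In the turnover list, with medians of -0.06 and -0.01, the ubiquitin ligase gene HUWE1 was at 0.990 (0.964 to 1.02) and 1.0 (0.975 to 1.03), and SET, an inhibitor of the phosphatase PP2A, at 1.0 (0.984 to 1.02) and 0.951 (0.934 to 0.968).

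Genes that MYC is known to activate lay on both sides of a ratio of 1, much as all genes did. Of 38, 19 lay above and 19 below a ratio of 1 with EVI1-WT, and 17 above and 21 below with EVI1+18, with medians of -0.0098 and -0.010 and 0 past 1.5-fold. Of all 10406 genes, 47.4% and 50.1% lay below 1 in these comparisons and 93.7% and 94.5% within 1.5-fold. NPM1, a nucleolar chaperone, was at 0.986 with EVI1-WT (0.974 to 0.998) and 0.956 with EVI1+18 (0.944 to 0.967). LDHA, lactate dehydrogenase, which is also a hypoxia target, was at 1.26 (1.24 to 1.28) and 1.38 (1.36 to 1.40). The 20 cell cycle genes had medians of 0.04 and 0.00040, with 7 and 10 below 1 and 0 past 1.5-fold, which is again near the shares of all genes. The licensing factor MCM7 was at 0.903 (0.884 to 0.922) and 1.01 (0.994 to 1.03), and the topoisomerase TOP2A at 0.995 (0.972 to 1.02) and 0.857 (0.836 to 0.878).

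Of the 5 genes that MYC is known to repress, 3 averaged 50 counts or more. CDKN1A, the cell cycle inhibitor p21, had 99, 21 and 63 counts. It was 4.77-fold lower with EVI1-WT (2.96 to 8.04) and 1.80-fold lower with EVI1+18 (1.30 to 2.51), and EVI1+18 exceeded EVI1-WT 2.65-fold (1.59 to 4.57). CDKN1A was thus lowest in the library in which MYC was lowest, but a link between them was not tested. The other two lay near 1, CDKN1B at 1.06 (0.954 to 1.19) and 0.95 (0.852 to 1.06), and GADD45A at 0.962 (0.896 to 1.03) and 0.919 (0.857 to 0.986). CDKN2B had 0 counts in every library.

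**Figure D4:**
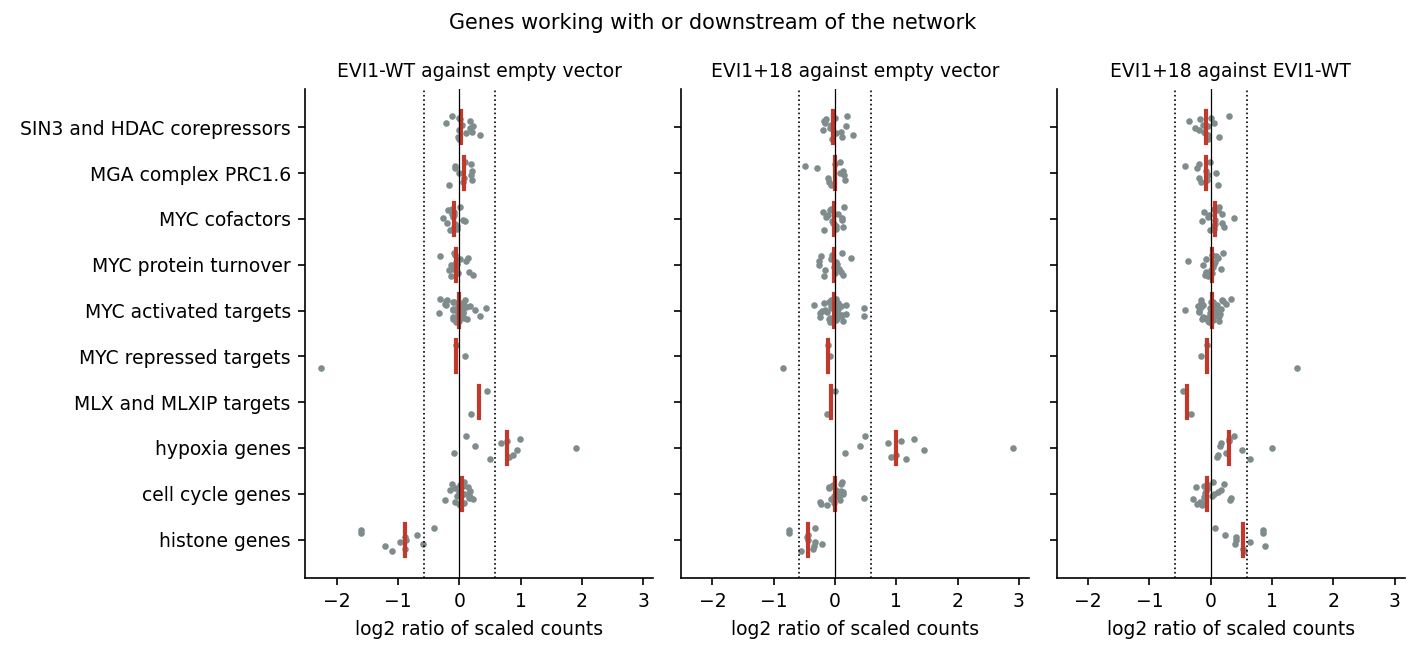
Log2 ratio of scaled counts for genes of 10 lists averaging 50 counts or more, in the 3 comparisons; each point is 1 gene, the red bar is the list's median and dotted lines mark 1.5-fold. The corepressor, PRC1.6, cofactor, turnover, MYC-activated and cell cycle lists stay within 1.5-fold, and the hypoxia list (0.77 and 1.0) and histone list (-0.89 and -0.45) lie away from 0 against empty vector.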

How the data were processed

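The deposited gene tables, per the file headers, give for each of 26334 genes an expected count, an estimate that shares reads between transcripts, with TPM and FPKM values the authors scaled by length, and an average transcript length. TPM served for levels between genes and as an alternative, and FPKM was not used. The genome build was hg19 and bcl2fastq was used, per the submitters' processing notes. For the aligner, the counting tool and the strand setting, a name is not given in the sources used here. Overlaps of exons were read from GENCODE 29 on another build.

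Expected counts were rounded and scaled with TMM factors (1.01, 0.990 and 0.996 for empty vector, EVI1-WT and EVI1+18) from edgeR 4.0.16 under R 4.3.3. Ratios carry exact Clopper-Pearson intervals conditional on the sum of both counts (scipy 1.17.1, Python 3.11.15), checked on simulated data. Ratios relative to MAX carry exact conditional intervals of the odds ratio. PCR copies were not told apart by molecular identifiers, so all intervals, and the limit of 3 counts set on a count of 0, hold for counting error alone. Library totals were 17794423, 18439311 and 20772348. The rules of size were 1.5-fold and 2-fold among genes averaging 50 counts or more.

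All 10 members are named. Of each other list the text names up to 4 genes past 1.5-fold, or up to 2 of the most abundant where none passed. Not every gene that this allows is described. CDKN1B, GADD45A, CDKN2B, MLXIPL, CA9, ADM, HIST1H1E, HIST1H4H, HIST1H4C and genes overlapping a member are named outside it, after their values were seen. The comparison with genes of at least 1000 counts, the ratios within a library and the check of overlaps were also chosen after the values were seen. The members and lists were chosen with earlier results of these data known. Alternatives were size factors from DESeq2 1.42.0, total counts, upper quartile, TPM, unrounded counts, and lower count minimums of 10 and 1.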

Additional observations from a re-analysis of the deposited data

How the results depend on the processing

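The counts of members past 1.5-fold (1, 1 and 0) and past 2-fold (0 in each comparison) were the same under all 7 alternatives. The lower count minimums reused the same ratios and added no member with a ratio, and unrounded counts left every member ratio unchanged. Only the other scalings and TPM could therefore alter these counts. No paired analysis was possible because each group has 1 library, and for the same reason no library could be left out. DESeq2 size factors, upper-quartile scaling and unrounded counts kept all 27 member ratios inside their counting intervals with 0 changes of sign, and total counts also kept all 27 inside with 1 change of sign (MAX with EVI1-WT). With TPM, 23 of 27 stayed inside and 4 changed sign. TPM moved the median of all 10406 genes to log2 ratios of -0.067, -0.10 and -0.032 in the 3 comparisons, and the members' medians became -0.084, -0.056 and -0.023. Relative to the median of all genes, the TPM log2 ratio of MYC was -0.29 with EVI1-WT and -0.12 with EVI1+18, and that of MXD3 0.76 and 0.90. Of 117 ratios of the other named genes, TPM put 42 outside their counting intervals and 2 (YAF2 and HIST1H1C, both with EVI1+18 against empty vector) past 1.5-fold, and total counts put 12 and 0. MXD3 rests on 36 counts with empty vector, and depth limits its ratio more than that of any other described member.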

Other observations

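Among genes working with the network, YAF2, a subunit of PRC1.6 beside MGA, had 279, 269 and 227 counts with empty vector, EVI1-WT and EVI1+18, and its ratio with EVI1+18 was 0.710 to empty vector (0.593 to 0.849) and 0.745 to EVI1-WT (0.621 to 0.892). HDAC1, the deacetylase of SIN3 complexes, had 4349, 5530 and 6074 counts, at ratios to empty vector of 1.26 (1.21 to 1.31) and 1.22 (1.17 to 1.27). TFRC, the transferrin receptor gene, which is both a MYC-activated gene and an erythroid marker, was the highest of the 38 activated genes with EVI1-WT, at 1.36 (1.34 to 1.38), and with EVI1+18, at 1.39 (1.36 to 1.41). E2F1, a driver of S phase, had 408, 458 and 650 counts and was at 1.39 with EVI1+18 (1.23 to 1.58). PPP2R5A, a PP2A subunit of MYC turnover, was at 0.801 with EVI1-WT (0.752 to 0.854).

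NDRG1, a gene of both the MYC-repressed and the hypoxia list with a mean under 50 counts, had 41, 24 and 11 counts. Its ratio to empty vector with EVI1+18 was 0.234 (0.109 to 0.464), lower where most hypoxia genes were higher. These genes were picked after their values were seen.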
